A study of Mus musculus with 15 samples.

Results

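The Hox genes are the 39 genes of the deposited tables whose symbol is Hox followed by a cluster letter (a, b, c or d) and a paralog number, out of 57180 genes listed. They encode homeodomain transcription factors that lie in 4 clusters, and the paralog number follows the order of the genes along each cluster. By the rule known as collinearity, genes with a low number are switched on earlier and reach farther forward in the embryo than genes with a high number. In the hindbrain, genes of the first 4 paralog groups have their front borders in the rhombomeres, the segments that form the pons and medulla, whereas the groups that follow begin in the caudal medulla or the spinal cord. The mix of paralog numbers in a piece of brainstem is therefore commonly read as a marker of its level along the head-to-tail axis.

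RNA-seq was performed on mouse brainstem tissue in 15 libraries from 2 experiments. The AMPK experiment, on neonatal mice, held 3 WT libraries (labelled AMPK+/+) and 3 libraries labelled AMPK-/-, the knockout of the α2 subunit of AMP-activated protein kinase, the cell's energy sensor. The Lmx1b experiment, on prenatal mice, held 3 WT libraries (LMX1B+/+), 3 Lmx1b+/- libraries and 3 Lmx1b-/- libraries, in which the LIM homeodomain factor Lmx1b carries 1 or no intact allele. Strain, embryonic day, sex and any pooling of animals were not given in the sources used here, and no further allele or agent was named for either experiment. The study described the tissue as ventilatory control centers and did not give the borders of the dissection.

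Prkaa2, which encodes AMPKα2, measured 21.9, 26.6 and 29.7 CPM (depth-scaled counts, comparable between the libraries of an experiment) in WT. The libraries labelled AMPK-/- had 25.4, 22.3 and 12.1 CPM, so the groups overlapped and the values do not separate the labels. The study also showed genotyping by PCR for AMPKα2-/- and WT mice, which RNA counts per gene do not test. Lmx1b was at 22.5, 16.0 and 9.73 CPM in WT, at 30.5, 11.9 and 14.2 CPM in Lmx1b+/- and at 1.45, 1.13 and 0.848 CPM in Lmx1b-/-, where all 3 libraries lay below the other 6. Total counts were 14975095 to 17384171 in 4 AMPK libraries but 291212 in WT 2 and 335986 in AMPK-/- 3, against 28833130 to 37441679 in the Lmx1b libraries. With no count at all, a gene may lie anywhere below 9.98 CPM in AMPK WT 2 and 9.07 CPM in AMPK-/- 3, against 0.175 to 0.198 CPM in the other 4 libraries of that experiment and 0.0676 to 0.109 CPM in the Lmx1b libraries. These limits cover counting error only. The 10 genes of brainstem neurons summed to 199 to 374 CPM in the AMPK libraries and 90.2 to 192 CPM in the Lmx1b libraries. AMPK WT 3 stood apart by a summed level of 1541 CPM over 20 skeletal muscle genes, against 14.9 to 24.0 CPM in the other 5 libraries.

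Promoter sequence is shown for 3 Hox genes, chosen after their values were seen: Hoxa2, the leading gene of its paralog group at the front end of the axis, and Hoxa7 and Hoxb8, posterior genes whose levels differed widely between single libraries. The lines give the 250 bases before the start of each gene, 5′ to 3′ on the gene's own strand, from RefSeq on GRCm38.p6, with matches to the searched motifs in capitals. Hoxa2 lies at chr6:52164832-52165081 (minus strand), Hoxa7 at chr6:52218574-52218823 (minus strand) and Hoxb8 at chr11:96281655-96281904 (plus strand).
Hoxa2: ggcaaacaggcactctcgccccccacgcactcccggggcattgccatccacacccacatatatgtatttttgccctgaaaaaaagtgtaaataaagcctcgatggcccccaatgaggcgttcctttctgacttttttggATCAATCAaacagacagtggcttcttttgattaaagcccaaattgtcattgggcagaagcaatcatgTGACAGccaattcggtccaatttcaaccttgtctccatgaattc
Hoxa7: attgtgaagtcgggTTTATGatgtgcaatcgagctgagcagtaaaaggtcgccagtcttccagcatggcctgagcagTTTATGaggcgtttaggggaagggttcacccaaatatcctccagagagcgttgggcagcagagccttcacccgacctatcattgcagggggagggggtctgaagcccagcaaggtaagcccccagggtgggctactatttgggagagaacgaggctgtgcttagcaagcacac
Hoxb8: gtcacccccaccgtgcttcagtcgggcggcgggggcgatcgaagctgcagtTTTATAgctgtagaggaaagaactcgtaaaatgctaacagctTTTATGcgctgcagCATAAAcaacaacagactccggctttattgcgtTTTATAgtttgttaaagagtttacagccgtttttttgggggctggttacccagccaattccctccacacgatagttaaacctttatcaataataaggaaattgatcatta

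The Hoxa2 window held TGACAG, the core motif of the Hox cofactor Meis, beginning 44 bases before the start, and TGATTNAT, a joint Pbx and Hox motif, on the opposite strand 111 bases before it. The Hoxa7 window held TTTATG, the core of the caudal-type (Cdx) factors, at 236 and 173 bases before the start. The Hoxb8 window held TTTATG at 157 bases and, on the opposite strand, at 143 bases, together with TATAAA on the opposite strand at 199 and 110 bases. No 2 of these matches overlapped. RefSeq promoters were at hand for 22 of the 39 Hox genes, with 24 start sites.

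Searched on both strands, TTTATG occurred in 20.8% of the 24 Hox windows and in 10.8% of all 32851 windows of this length, TGATTNAT in 8.33% and 2.82%, TATAAA in 16.7% and 12.4%, and TGACAG in 8.33% and 15.9%. A match is a stretch of letters only, and the Hox windows were richer in G and C than all windows, with medians of 58.6% and 52.4%.

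In all 15 libraries the Hox profile peaked at paralog group 5 by RPKM and all but ended after group 9. Group 5 took the largest share of the summed Hox level per gene length (RPKM, the authors' depth-scaled counts per kilobase) in every library, from 25.4% in AMPK-/- 3 to 57.7% in Lmx1b+/- 1. Hoxa5, which takes part in patterning the neck region and in lung and diaphragm innervation, was the single highest gene by RPKM in 14 of 15 libraries. The exception was AMPK WT 3, where Hoxb8 was highest at 32.2 RPKM. In that library group 8 summed to 40.3 RPKM, just under the 40.9 RPKM of group 5. By CPM group 8 led there, with 97.1 against 86.6. In the shallow AMPK-/- 3, groups 4 and 5 were level at 25.7 RPKM. Behind group 9 there was next to no signal: 7 genes (Hoxd10, Hoxc11, Hoxd11, Hoxc12, Hoxd12, Hoxa13 and Hoxb13) had no count in any library, and 12 genes, those 7 included, had under 10 counts over all libraries together. Of group 13, Hoxd13 had 0 to 5 counts a library, and Hoxc13 had 1 count, in Lmx1b WT 3.

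**Figure D1:**
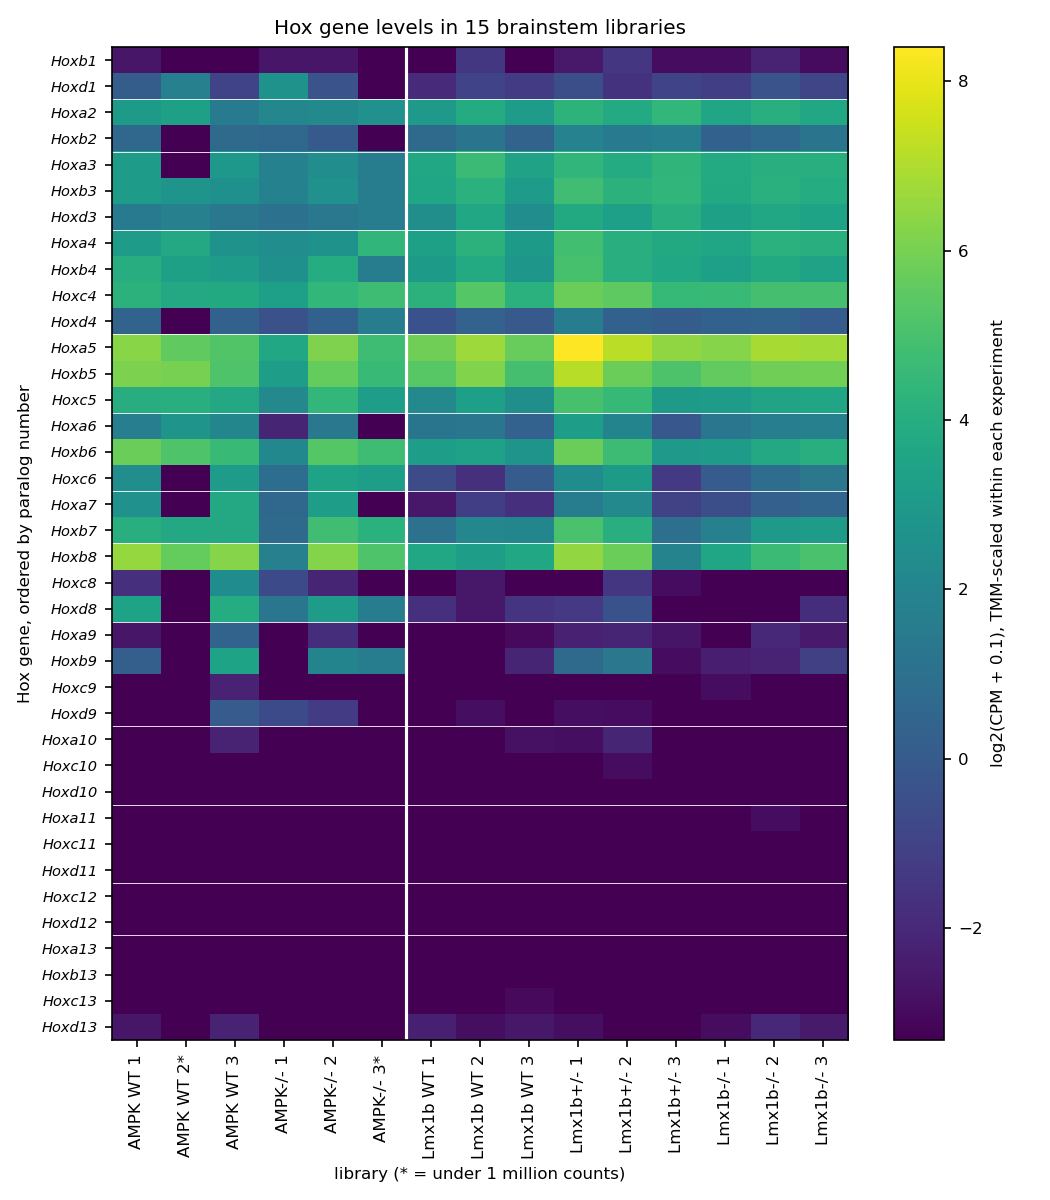
Level of the Hox genes reported here (rows, ordered by paralog number) in each of the 15 libraries (columns; * marks the 2 shallow libraries). Colour gives log2(CPM + 0.1), scaled by TMM within each experiment. The brightest rows are Hoxa5 and Hoxb5, and signal stops after paralog group 9.

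The order of the members by RPKM was given by a few genes per group. In the prenatal WT libraries paralog group 1 was low, at a summed 1.16, 1.66 and 0.901 CPM. Hoxa2, the selector gene of the second pharyngeal arch and of rhombomeres behind the first, was at 4.30, 8.23 and 6.10 RPKM. Hoxb3 was at 2.69, 4.14 and 2.59 RPKM and thus below Hoxa2 in all 3 libraries.

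Among the genes of the caudal medulla, Hoxc4 was at 6.88, 15.7 and 8.62 RPKM and Hoxa5 at 30.1, 54.5 and 33.9 RPKM. Hoxb6 was at 4.54, 5.32 and 4.17 RPKM, Hoxb7 at 1.25, 2.74 and 3.31 RPKM, and Hoxb8 at 4.75, 3.53 and 6.05 RPKM. The step from Hoxc4 up to Hoxa5 and the step from Hoxa5 down to Hoxb6 did not overlap between libraries, whereas Hoxb6 and Hoxb8 did. Hoxb9 had no count in WT 1 and WT 2 and was at 0.0651 RPKM in WT 3.

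Paralog groups were unequal within, too. In the Lmx1b experiment the A cluster held 48.9 to 61.1% of the summed Hox RPKM and the B cluster 25.3 to 36.9%, and the C and D clusters held 8.09 to 13.4% and 1.15 to 3.72%. In the AMPK experiment the B cluster led in 5 of 6 libraries, with 49.7 to 57.2%, and the A cluster had 27.5 to 37.9% over all 6 libraries. AMPK-/- 1 was the exception, with 31.1% for the B cluster. Hoxb1, the gene of rhombomere 4, had at most 8 counts in any library, while Hoxd3 and Hoxd4 share 62.3% and 52.3% of their annotated exon bases with other genes on the same strand, in part with each other, so their counts are uncertain. In the GENCODE annotation on GRCm38, which is not the build named in the submitters' processing notes, 16 of the 39 genes share exon bases with another gene, 10 of them with an antisense gene, which include Hoxb3 (52.9%), Hoxb2 (27.3%), Hoxa3 (25.4%) and Hoxa7 (20.4%). The library kit keeps the strand of the RNA, but whether the counting used it was not given in the sources used here.

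**Figure D2:**
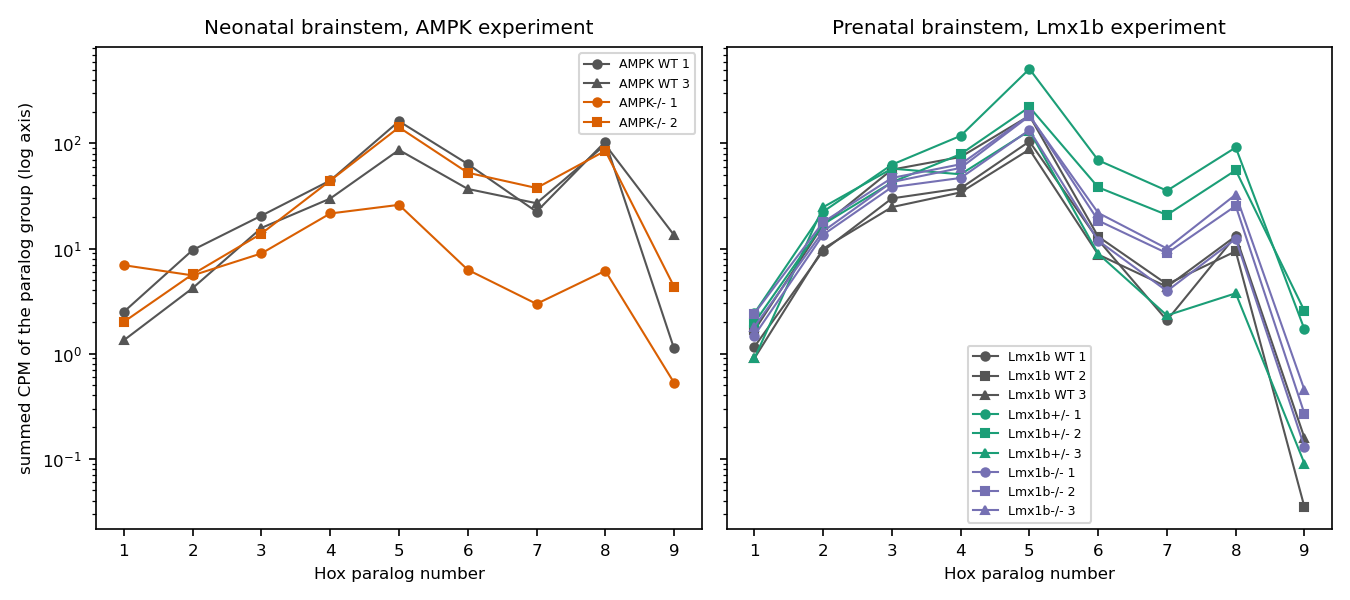
Summed CPM of the Hox genes of each paralog group from 1 to 9 (x axis; y axis on a log scale) in the 4 deep AMPK libraries (left) and the 9 Lmx1b libraries (right). AMPK-/- 1 runs below the other 3 AMPK libraries from group 3 to group 9. Lmx1b+/- 1 and 2 run above the WT libraries in every group shown, except Lmx1b+/- 2 in group 3. Lmx1b WT 1 has no count in group 9 and no point there.

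The WT libraries of the 2 experiments differed most at the posterior end. Hoxb8, a gene of the spinal cord and caudal medulla, was at 92.4, 49.9 and 76.7 CPM in neonatal WT and at 12.98, 9.28 and 12.87 CPM in prenatal WT. Hoxd8 was at 11.2, 0 and 15.3 CPM in neonatal WT, the 0 in the shallow library, and at 0.211, 0.0693 and 0.248 CPM in prenatal WT. Hoxb8 did not overlap between the experiments, and Hoxd8 overlapped only through the shallow library.

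Hoxa7 was at 6.06, 0 and 13.4 CPM in neonatal WT and at 0.0703, 0.346 and 0.203 CPM in prenatal WT. Hoxa5 was at 78.9, 46.6 and 36.7 CPM and at 58.6, 102 and 51.4 CPM, so this gene overlapped. Hoxd3 went the other way, with 2.70, 3.33 and 2.45 CPM in neonatal WT and 5.42, 13.1 and 5.25 CPM in prenatal WT.

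In the shallow libraries the Hox profile rests on 88 counts (WT 2) and 75 counts (AMPK-/- 3), against 1286 to 25272 in the others. The mean paralog number, weighted by RPKM, condenses each profile to 1 number: a higher value means that more of the Hox RNA came from posterior genes. It was 5.70, 5.40 and 6.14 in neonatal WT (5.75 ± 0.370, SD, n = 3) and 4.77, 4.60 and 4.79 in prenatal WT (4.72 ± 0.105, n = 3), and the 2 sets did not overlap. The summed Hox level was 431, 293 and 312 CPM in neonatal WT and 210, 360 and 184 CPM in prenatal WT, which overlapped. Age, experiment and table are the same split here and cannot be told apart, so no test was made between them. In bulk tissue, moreover, fewer cells of a kind and less RNA per cell cannot be told apart.

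**Figure D3:**
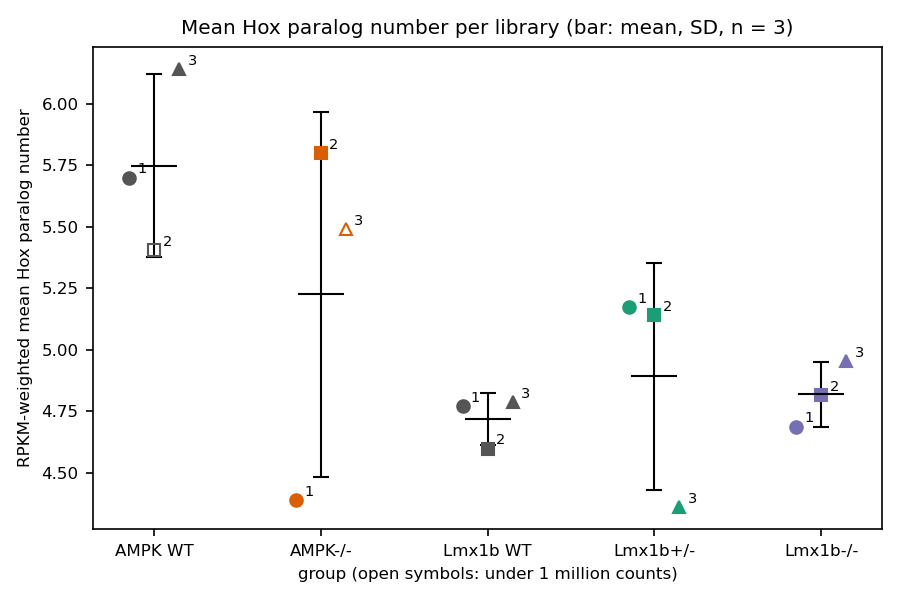
RPKM-weighted mean Hox paralog number (y axis, no unit) of each library by group (x axis), with the mean and SD of 3 libraries as a bar; open symbols are the 2 shallow libraries and digits are replicate numbers. AMPK WT 3 is highest at 6.14, and Lmx1b+/- 3 at 4.36 and AMPK-/- 1 at 4.39 are lowest.

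The first comparison asked which genes differ between brainstem of AMPK-/- and WT mice. No Hox gene was called with edgeR's quasi-likelihood test at an adjusted p under 0.05: 0 of the 22 Hox genes that passed the filter on low counts, while 8.94% of all 17397 genes tested were called, 3.77% higher and 5.17% lower. Without adjustment 5 of 22 had a p under 0.05, beside 4272 of all 17397 genes. DESeq2 called 0 Hox genes, with 0 unadjusted, and 689 of all 34031 genes. Limma called 0 of all 17397 genes, so its 0 Hox calls, with 2 unadjusted, add nothing. Of the other 17 Hox genes, 10 had no count in this experiment and 7 had too few. The log2 fold change was below 0 for 18 of 22 Hox genes, with a median of -0.36 against -0.01 over all genes, and below 0 for 21 of 22 when libraries were scaled by total count only, which lowered the median of all genes to -0.18.

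The smallest p belonged to Hoxd1, an anterior gene, at 0.988, 3.33 and 0.409 CPM in WT and 6.21, 0.713 and 0 CPM in the libraries labelled AMPK-/-. Among the deep libraries AMPK-/- 1 alone was high, with 94 counts, while the 3.33 CPM of the shallow WT 2 was 1 count. The groups overlapped (log2 fold change 2.12 ± 0.73, SE, edgeR adjusted p = 0.0702). Hoxa6 was the only tested Hox gene whose groups did not overlap, against 26.6% of all genes tested, 12.7% with the libraries labelled AMPK-/- lower. It was at 3.16, 6.66 and 4.03 CPM in WT and 0.132, 2.46 and 0 CPM in the libraries labelled AMPK-/- (-1.56 ± 0.64, edgeR adjusted p = 0.129). The 0 in the shallow AMPK-/- 3 allows up to 9.07 CPM, above all WT values, and the WT 2 value was 2 counts. The groups may therefore overlap in this gene too.

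The libraries labelled AMPK-/- were unlike each other. Hoxb8 was at 3.30 CPM in AMPK-/- 1, at 76.0 CPM in AMPK-/- 2 and at 36.3 CPM in AMPK-/- 3. Hoxa5 was at 12.5, 70.3 and 27.2 CPM in the same order. Hoxb7 was at 1.59, 28.1 and 18.1 CPM. In all 3 genes AMPK-/- 1 was the low library, and AMPK-/- 2 lay within or above the WT range of 49.9 to 92.4 CPM for Hoxb8 and 13.3 to 16.3 CPM for Hoxb7.

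In 3 anterior genes AMPK-/- 1 was not the lowest of all libraries. Hoxa2 was at 8.23, 9.98 and 2.63 CPM in WT and 4.16, 4.79 and 6.04 CPM in the libraries labelled AMPK-/-. Hoxb3 was at 8.95, 6.66 and 5.78 CPM and 3.50, 6.02 and 3.02 CPM, and Hoxb4 at 15.7, 9.98 and 8.70 CPM and 5.88, 15.03 and 3.02 CPM, in the same order. Hoxa2 was nearly level in the libraries labelled AMPK-/- and lowest in WT 3, while Hoxb3 and Hoxb4 were lowest in the shallow AMPK-/- 3, with 1 count each. Among the 4 deep libraries, Hoxb3 and Hoxb4 were lowest in AMPK-/- 1. All 3 genes overlapped between the groups.

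Hoxc4 was at 18.7, 13.3 and 13.8 CPM in WT and 9.71, 21.6 and 27.2 CPM in the libraries labelled AMPK-/-. Hoxc5 was at 15.6, 16.6 and 13.4 CPM and 4.43, 21.8 and 9.07 CPM. Hoxb6 was at 55.2, 36.6 and 24.4 CPM and 4.36, 39.1 and 27.2 CPM. In all 3 genes AMPK-/- 1 was the lowest of the 6 libraries and AMPK-/- 2 lay within or above the WT range.

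Among the 4 deep libraries, AMPK-/- 1 was the lowest in all 11 tested genes of paralog groups 5 to 9 and in 8 of 11 of groups 1 to 4. The ratio of AMPK-/- 2 to AMPK-/- 1 had a median of 6.21 over the 9 genes of groups 5 to 8 with at least 10 counts in both (3.87 to 23.0) and of 1.55 over 11 genes of groups 1 to 4, against 0.992 over 16892 genes. WT 1 against AMPK-/- 1 gave 6.32 and 1.93. Accordingly groups 1 to 4 held 49.2% of the Hox RPKM in AMPK-/- 1 and 14.3 to 30.5% in the other 5 libraries, and the mean paralog number was 4.39, 5.80 and 5.49 in the libraries labelled AMPK-/- (5.22 ± 0.741, n = 3).

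The opposite end was held by WT 3. Hoxb9 was at 11.1 CPM there, at 1.05 CPM in WT 1, while 0, 3.82 and 3.02 CPM were found in the libraries labelled AMPK-/-. Hoxc8 was at 5.08 CPM in WT 3 and at 0.130 to 0.529 CPM in the other deep libraries. Hoxa9 was at 1.23 CPM and 0 to 0.194 CPM, respectively. The shallow WT 2 and AMPK-/- 3 had no count of either gene, which allows up to 9.98 and 9.07 CPM. Of the 328 Hox counts behind group 8 in this experiment, 234 came from WT 3. This was also the library with the high muscle genes, whose part in these values was not tested.

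Some marker sums of other cells and regions also differed between these groups, where 3.77% of all genes were called higher and 5.17% lower. The 8 choroid plexus genes summed to 39.1 to 145 CPM in the libraries labelled AMPK-/- and 13.3 to 19.3 CPM in WT (2 of 5 tested higher), and the 10 axial skeleton genes to 12.1 to 15.9 and 28.2 to 35.1 CPM (2 of 4 lower). Neither sum overlapped. The midbrain and isthmus list (9 genes) summed to 13.9, 28.7 and 15.1 CPM against 29.9 to 43.0 CPM in WT (1 of 6 lower), again with no overlap and with Fgf8 at 0 in all 6 libraries.

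The remaining lists overlapped between the groups, beside the same 3.77% of all genes called higher and 5.17% lower. They were the meninges (121 to 223 against 67.1 to 216 CPM, 2 of 8 higher), the cerebellum (133 to 215 against 146 to 159 CPM, 1 of 7 higher and 1 lower), sensory ganglia (5460 to 7277 against 3847 to 6851 CPM, 1 of 6 higher) and brainstem neurons (2 of 8 higher and 1 lower). Of 9 skeletal muscle genes tested 8 were lower, WT 3 being the high library, and the 10 forebrain genes summed to at most 1.87 CPM, with none tested. Tph2, the enzyme of serotonin synthesis and chosen here after its values were seen, was at 134 CPM in AMPK-/- 1 and 69.5 CPM in AMPK-/- 3, and at 0.700 to 6.66 CPM in the other 4 libraries. The part of these cells in the Hox values was not tested.

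The count of 0 depended on single libraries. Without AMPK-/- 2, 11 Hox genes were called, 10 of them lower, beside 1440 of all 17971 genes tested. Without WT 1, 3 were called, beside 2958 of 17992. With both shallow libraries aside, an alternative added after the data were seen, 0 were called, with 3 unadjusted. Only 6 of all 18088 genes were called in that fit, so its 0 says little about Hox genes.

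**Figure D4:**
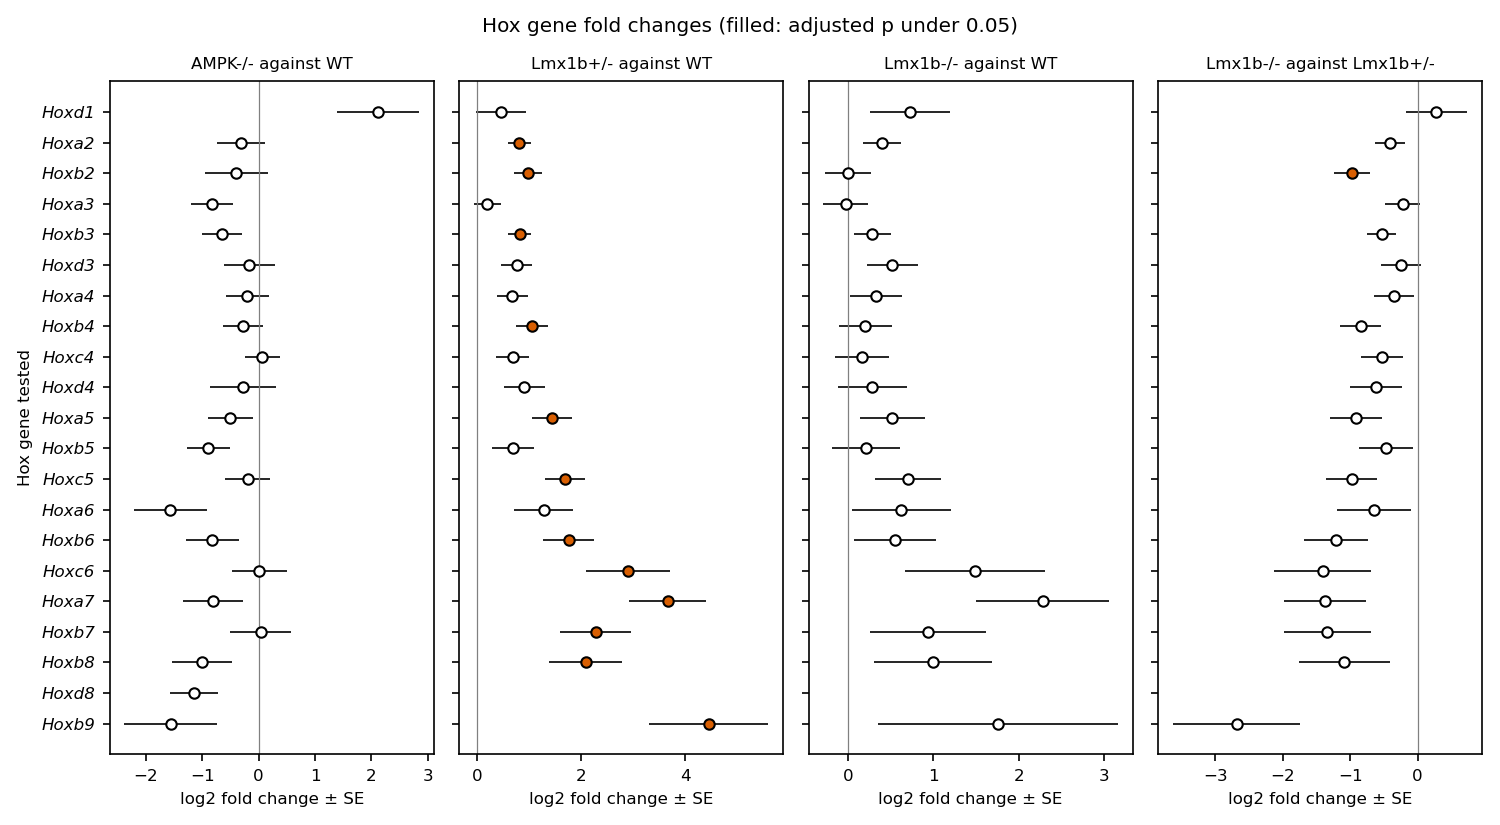
Log2 fold change (x axis) with its SE for the Hox genes reported here that passed the filter (y axis, ordered by paralog number) in the 4 comparisons; filled points have an adjusted p under 0.05. In Lmx1b+/- against WT every point lies above 0, and 12 are filled.

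The second experiment asked which genes depend on Lmx1b in the prenatal brainstem. In Lmx1b+/- against WT, 12 of the 21 Hox genes tested were higher and 0 were lower, while 19.4% of all 21729 genes tested were called higher and 17.3% lower. The 12 were Hoxa2 and Hoxb2, Hoxb3, Hoxb4, Hoxa5 and Hoxc5, Hoxb6 and Hoxc6, Hoxa7 and Hoxb7, Hoxb8 and Hoxb9. The log2 fold change was above 0 for 21 of 21, with a median of 0.97 against -0.03 over all genes, and for 20 of 21 under scaling by total count only, which moved the median of all genes to -0.27 and that of the Hox genes to 0.74. Of the other 18 Hox genes, 7 had no count and 11 did not pass the filter.

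The median fitted change between the groups grew along the axis. Lmx1b+/- 3 did not follow this, with Hoxb7 and Hoxb8 below all WT libraries. The median log2 fold change was 0.67 over the 4 genes tested of paralog groups 1 and 2 (2 called), 0.76 over 7 of groups 3 and 4 (2 called), 1.56 over 6 of groups 5 and 6 (4 called) and 2.96 over 4 of groups 7 to 9 (4 called).

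At the anterior end, Hoxa2 was at 7.91, 14.6 and 8.74 CPM in WT against 18.8, 14.1 and 21.6 CPM in Lmx1b+/-. The middle Lmx1b+/- library lay just under the highest WT library, so the groups overlapped (0.81 ± 0.22, SE; edgeR adjusted p = 0.0123). Hoxb2 was at 1.58, 2.15 and 1.22 CPM in WT and 3.58, 2.87 and 3.15 CPM in Lmx1b+/-, with no overlap (0.97 ± 0.27; edgeR adjusted p = 0.0127).

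Hoxb3, which helps to specify rhombomeres 5 and 6, was at 11.9, 17.6 and 8.90 CPM in WT and 27.7, 18.4 and 21.2 CPM in Lmx1b+/-. It did not overlap either (0.81 ± 0.22; edgeR adjusted p = 0.0101). Hoxb4, a gene of the rhombomere 7 border, was at 8.23, 14.5 and 7.23 CPM in WT and 31.7, 16.9 and 13.2 CPM in Lmx1b+/-, where the last library lay within the WT range (1.05 ± 0.31; edgeR adjusted p = 0.0177).

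Hoxa5 was at 58.6, 102 and 51.4 CPM in WT and 339, 144 and 89.0 CPM in Lmx1b+/- (1.43 ± 0.39; edgeR adjusted p = 0.0113). Hoxc5, expressed with Hoxa5 in motor neurons of the neck cord, was at 4.43, 9.59 and 5.70 CPM in WT and 32.2, 23.0 and 8.25 CPM in Lmx1b+/- (1.68 ± 0.39; edgeR adjusted p = 0.00437). In both genes Lmx1b+/- 3 lay within the WT range and the other 2 lay above it.

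Hoxb6 was at 9.25, 10.4 and 6.60 CPM in WT and 54.8, 26.0 and 7.80 CPM in Lmx1b+/- (1.76 ± 0.49; edgeR adjusted p = 0.0126). Hoxc6, which marks the forelimb level of the cord, was at 0.563, 0.208 and 0.969 CPM in WT and 5.07, 8.32 and 0.300 CPM in Lmx1b+/- (2.89 ± 0.80; edgeR adjusted p = 0.0125). Again Lmx1b+/- 1 and 2 lay above all WT libraries and Lmx1b+/- 3 among them.

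Hoxa7 was at 0.0703, 0.346 and 0.203 CPM in WT, or 2 to 10 counts, and at 3.08, 4.52 and 0.390 CPM in Lmx1b+/-. The groups did not overlap, but Lmx1b+/- 3 lay close to WT (3.66 ± 0.74; edgeR adjusted p = 0.00198). Hoxb7 was at 2.00, 4.23 and 4.12 CPM in WT and 32.4, 16.4 and 1.92 CPM in Lmx1b+/-, where the last library was below all 3 WT libraries (2.27 ± 0.68; edgeR adjusted p = 0.0188).

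Hoxb8 was at 12.98, 9.28 and 12.87 CPM in WT and 91.2, 54.6 and 3.72 CPM in Lmx1b+/-, so Lmx1b+/- 3 was again below WT (2.08 ± 0.70; edgeR adjusted p = 0.0328). Hoxb9, the most posterior Hox gene tested, had 0, 0 and 6 counts in WT (0 to 0.135 CPM) and was at 1.56, 2.39 and 0.0300 CPM in Lmx1b+/-. Its fitted change (4.44 ± 1.15; edgeR adjusted p = 0.00881) rests on near-empty WT libraries and is no bound on the size.

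The groups of 9 of the 12 called genes thus overlapped, and Hoxb2, Hoxb3 and Hoxa7 were the only 3 of 21 that did not, against 45.3% of all genes tested, 23.4% with Lmx1b+/- higher. In Lmx1b+/- 1, all 10 tested genes of groups 5 to 9 lay above the 3 WT libraries, and in Lmx1b+/- 2, 9 of 10 did. In Lmx1b+/- 3, 1 of 10 lay above, 3 below and 6 within the WT range. In groups 1 to 4 the 3 libraries had 10, 5 and 5 of 11 genes above WT. Tested genes that were not called had log2 fold changes between 0.20 (Hoxa3) and 1.27 (Hoxa6).

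**Figure D5:**
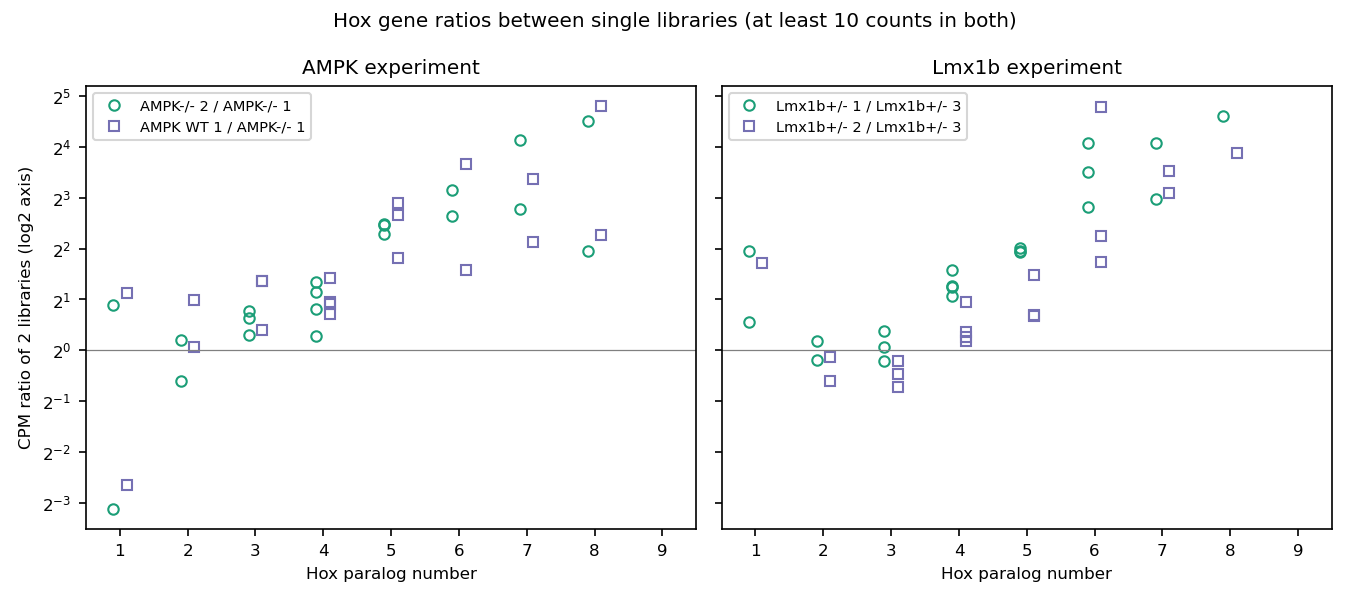
CPM ratio between single libraries of the same experiment (y axis, log2 scale) for each Hox gene with at least 10 counts in both, by paralog number (x axis). The medians over groups 1 to 4 are 1.46 and 1.55, and those over groups 5 to 8 are higher, at medians of 7.89 for Lmx1b+/- 1 over Lmx1b+/- 3 and 6.21 for AMPK-/- 2 over AMPK-/- 1 in groups 5 to 8.

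The Lmx1b+/- libraries were unlike each other. Lmx1b+/- 1 over Lmx1b+/- 3 had a median ratio of 7.89 for the 9 genes of groups 5 to 8 (3.81 to 24.5) and 1.46 for 11 genes of groups 1 to 4, against 0.980 over 19780 genes. Lmx1b+/- 2 over Lmx1b+/- 3 gave 4.78 and 1.02. Between WT libraries the same ratios were 1.73 and 1.79 (WT 2 over WT 1) and 0.933 and 0.857 (WT 3 over WT 1), and for Lmx1b-/- 3 over Lmx1b-/- 1 they were 1.88 and 1.15. The mean paralog number was 5.17, 5.14 and 4.36 in Lmx1b+/- (4.89 ± 0.461, n = 3), with Lmx1b+/- 1 and 2 above and Lmx1b+/- 3 below all WT libraries.

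Some marker sums of other cells and regions differed here too, where 19.4% of all genes were called higher and 17.3% lower. The cerebellum list (10 genes) summed to 341 to 448 CPM in Lmx1b+/- and 449 to 582 CPM in WT (4 of 9 tested lower), and the 20 skeletal muscle genes to 33.1 to 34.2 and 23.7 to 29.8 CPM (4 of 16 higher, 1 lower). Neither sum overlapped. The midbrain and isthmus list summed to 117, 125 and 73.4 CPM in Lmx1b+/-, against 103 to 186 CPM in WT and 90.1 to 99.9 CPM in Lmx1b-/-, and 2 of 7 (Pax5 and Th) were lower in Lmx1b+/- than in WT.

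The other sums overlapped. Where 1 gene of a list was called, that was no more than the 19.4% higher or 17.3% lower over all genes. The choroid plexus genes summed to 85.9, 1662 and 946 CPM in Lmx1b+/- and 232 to 386 CPM in WT, with 0 of 8 called, and the sensory ganglia list to 56.2 to 87.9 and 79.3 to 87.3 CPM (4 of 9 lower). Of the meninges list 3 of 10 were lower, of the axial skeleton list 1 of 7 was lower, of the forebrain list 1 of 8 was higher, and of the brainstem neuron list 1 of 10 was higher and 1 lower. Their part in the Hox differences was not tested.

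The count of 12 fell to 7 without WT 3 and to 7 without Lmx1b+/- 1, beside 6796 of all 22134 and 7319 of 22298 genes. It rose to 15 without Lmx1b+/- 3 or without WT 2, beside 5911 of 22323 and 7228 of 22419. It was 11 with DESeq2, beside 8120 of 40961 genes. Limma gave 9 on log2(RPKM + 1) and 7 on log2(RPKM + 0.1), beside 7273 and 7280 of 21729.

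In Lmx1b-/- against WT, 0 of 21 Hox genes were called with edgeR, while 0.0184% of all genes were. Only Hoxa7 had an unadjusted p under 0.05, beside 1757 of all 21729 genes. DESeq2 called 0 Hox genes, with 1 unadjusted, and limma 0, with 0 and 2 for the larger and smaller pseudocount. DESeq2 called only 36 of all 40961 genes and limma 3 of 21729, so these zeros say little about Hox genes. The log2 fold change was above 0 for 20 of 21, with a median of 0.52 against 0.01 over all genes. Over the 4 genes tested of groups 7 to 9 the median was 1.38, against 0.28 to 0.59 in the lower groups. Hoxa7 was at 0.613, 1.10 and 1.33 CPM in Lmx1b-/-, above all 3 WT libraries (2.28 ± 0.78; edgeR adjusted p = 0.544). It was among the 2 of 21 that did not overlap, against 18% of all genes tested, 11.9% with Lmx1b-/- higher and 6.09% lower.

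Hoxb8 was at 12.4, 25.5 and 32.4 CPM in Lmx1b-/- (1.00 ± 0.69; edgeR adjusted p = 0.707). Hoxa5 was at 77.7, 116 and 110 CPM (0.52 ± 0.38; edgeR adjusted p = 0.722). Hoxb2 was at 1.16, 1.51 and 2.20 CPM, much as in WT, with a fitted change of 0.00 ± 0.27. In groups 5 to 9, Lmx1b-/- 1, 2 and 3 had 1, 8 and 9 of 10 genes above the WT range, and the mean paralog number was 4.69, 4.82 and 4.95 (4.82 ± 0.132, n = 3), which overlapped with WT. When all genes with any count were tested, 7 Hox genes were called higher in Lmx1b-/-, beside 329 of all 40964 genes in either direction. This filter gave far smaller p-values. For Hoxb8 in Lmx1b+/- against WT, whose groups overlapped, the edgeR adjusted p was 2.35e-48 in place of 0.0328.

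Among the other genes, Hoxa2 was at 12.4, 16.3 and 12.4 CPM in Lmx1b-/- and Hoxb3 at 14.0, 17.3 and 15.1 CPM. Hoxc4 was at 24.2, 30.6 and 30.3 CPM, and Hoxb4 at 9.65, 13.9 and 10.8 CPM. All 4 lay within or overlapped the WT range. Hoxc5 was at 8.81, 11.4 and 12.0 CPM, Hoxb6 at 8.59, 13.5 and 16.1 CPM, and Hoxb7 at 3.33, 7.93 and 8.67 CPM, so in these 3 genes Lmx1b-/- 1 lay within the WT range and the other libraries above it. Hoxb9 had 3, 4 and 14 counts.

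In Lmx1b-/- against Lmx1b+/-, only Hoxb2 was called, lower in Lmx1b-/- (-0.97 ± 0.27; edgeR adjusted p = 0.018), 1 of 21 against 14% of all genes called lower. Hoxb2 and Hoxb3 did not overlap between these groups, against 42.4% of all genes, 21.4% with Lmx1b-/- lower. This comparison shares its Lmx1b+/- libraries with the one against WT. The log2 fold change was below 0 for 19 of 21, with a median of -0.65 against 0.02 over all genes. An unadjusted p under 0.05 was found for 8 of 21, beside 8001 of all 21729 genes. The calls turned on 1 library here as well: there were 11 without Lmx1b+/- 3, 3 without Lmx1b+/- 2 and 0 without Lmx1b-/- 1 or Lmx1b-/- 2. In the same order, all genes called were 3755 of 22323, 6054 of 22566, 3602 of 22468 and 4187 of 22371.

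Genes known to act with or upon the Hox clusters were described from lists. Of the 9 Hox cofactors of the Pbx, Meis and Pknox families, which bind DNA together with Hox proteins, all were tested, and 1 was called in the AMPK comparison and 1 in Lmx1b+/- against WT, where 8.94% and 36.7% of all genes were called. Meis2 rose in the libraries labelled AMPK-/- (0.79 ± 0.21; edgeR adjusted p = 0.0207), and its level was 134 CPM in AMPK-/- 1, 78.2 and 90.7 CPM in AMPK-/- 2 and 3 and 49.1 to 73.2 CPM in WT. Pbx3 rose in Lmx1b+/- against WT (0.38 ± 0.10; edgeR adjusted p = 0.0110) and was lower in Lmx1b-/- than in Lmx1b+/- (-0.30 ± 0.10; edgeR adjusted p = 0.0474).

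Of 21 activators and retinoic acid genes, which set the front borders of Hox expression, 14 were tested in the AMPK experiment, of which 3 rose, Aldh1a2 and Crabp2 among them, and 1 fell, against 3.77% and 5.17% of all genes. Aldh1a2, which makes retinoic acid, was at 4.35, 6.66 and 10.2 CPM in WT and 26.4, 22.7 and 27.2 CPM in the libraries labelled AMPK-/- (1.78 ± 0.30; edgeR adjusted p = 0.00124). In Lmx1b+/-, 3 of 16 rose and 4 fell against WT, close to the 19.4% and 17.3% of all genes. Of the 3, Crabp1 (1.25 ± 0.24) and Crabp2 (0.93 ± 0.20) bind retinoic acid in the cell. Of those that fell, Aldh1a1 had the smallest p (-1.86 ± 0.47). Cdx1, Cdx2 and Cdx4, activators of posterior Hox genes in the early embryo, had at most 1 count in any library, and in Lmx1b-/- against WT 0 of 16 were called.

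Polycomb and Trithorax proteins keep Hox clusters silent or active, and all 20 genes listed were tested. In the libraries labelled AMPK-/-, 3 fell: Kmt2d (-1.76 ± 0.26), Kdm6b (-1.60 ± 0.38) and Kmt2a (-0.91 ± 0.22), all of the activating side, and 0 rose, against 5.17% lower and 3.77% higher over all genes. In Lmx1b+/- against WT, 3 of 20 rose and 7 fell, against 19.4% and 17.3% of all genes. Those that rose were the Polycomb genes Rnf2 (0.66 ± 0.11), Bmi1 and Ezh2. Those that fell were from both sides, among them Kmt2a (-0.82 ± 0.12), Kmt2d (-1.03 ± 0.16) and Kdm6b of the activating side, and Cbx7 (-0.96 ± 0.23), Ezh1 and Jarid2 of the Polycomb side. In Lmx1b-/- against WT, 0 were called, and against Lmx1b+/- 3 were higher and 3 lower.

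Of the 19 non-coding and neighbour genes of the clusters, 9 were tested, and in Lmx1b+/- against WT 5 of them rose and 1 fell, against 19.4% and 17.3% of all genes. Hoxaas3, antisense in the A cluster, was at 0.457, 1.11 and 0.856 CPM in WT and 3.66, 2.16 and 2.76 CPM in Lmx1b+/- (1.81 ± 0.32; edgeR adjusted p = 0.000762). Unlike Hoxa7, with which it shares exon bases on the opposite strand, it was high in all 3 Lmx1b+/- libraries. Hoxb5os was at 0.141, 1.11 and 0.383 CPM in WT and 3.94, 1.65 and 1.23 CPM in Lmx1b+/- (2.07 ± 0.57; edgeR adjusted p = 0.0118). Evx2, next to the posterior end of the D cluster, fell (-0.80 ± 0.16). Against Lmx1b+/-, Hoxb5os and Hoxaas3 fell in Lmx1b-/- (-2.05 ± 0.56 and -1.50 ± 0.31), and in the AMPK comparison 0 of 9 were called. Hotair and Hoxa11os had no count in any library.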

How the data were processed

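RNA was sequenced from mouse brainstem. The submitters' processing notes name HISAT2 and GRCm39. How reads were counted, and with which strand setting, was not given in the sources used here. For each experiment the authors deposited whole-number counts per gene and RPKM per gene, and 0 columns belonged to other samples. Ensembl identifiers were matched to symbols for 51884 of 57180 genes.

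Counts were filtered (filterByExpr), scaled by TMM and tested with edgeR 4.0.16 in R 4.3.3 (quasi-likelihood F-test, genotype as the only term, 6 AMPK libraries or all 9 Lmx1b libraries, Benjamini-Hochberg over all genes tested, called at adjusted p under 0.05). CPM use the library total after TMM scaling. A count of 0 allows up to 3 counts. Alternatives were DESeq2 1.42.0, limma 3.58.1 on log2(RPKM + 1) or log2(RPKM + 0.1), other scalings and filters, the replicate number as a block, and libraries left out. The fit was tested on simulated data. Values per library are given for Hox genes called in any comparison, for the leading gene by RPKM of each paralog group in the Lmx1b libraries and at the posterior end of detection, and for at most 4 called genes of each further list, by smallest p. The members and lists were chosen with earlier results of these data known. No source says that the replicates came from separate animals, so p-values measure only the spread between these libraries. Some genes that enter these counts and sums are not reported here by name.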

Additional observations from a re-analysis of the deposited data

How the results depend on the processing

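The counts of called Hox genes depended on the settings as follows. In AMPK-/- against WT the count of 0 became 1 with library size only, beside 1928 of all 17397 genes. It became 8 (1 higher, 7 lower) with all genes with any count, beside 1969 of 34073. Leaving out single libraries gave 0 to 11, beside 548 to 2958 of all genes. In Lmx1b+/- against WT the 12 became 7 with limma on log2(RPKM + 0.1) and 9 with log2(RPKM + 1). These fits called 7280 and 7273 of all 21729 genes. It became 18 with any count, beside 8233 of 40964, and 7 to 15 with single libraries left out, beside 5911 to 8404. In Lmx1b-/- against WT any count gave 7, beside 329 of 40964. The count stayed at 0 with each library left out, where only 3 to 11 of all genes were called. In Lmx1b-/- against Lmx1b+/- the 1 became 2 with library size only, DESeq2 or the 6 libraries alone, beside 5033, 5885 and 5509 of all genes. It became 16 with any count and 0 with limma on log2(RPKM + 0.1), beside 5692 and 4500. It was 0 to 11 with single libraries left out, beside 3500 to 6054. The cause was not tested.

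Replicate numbers did not pair the libraries: the deviations of same-numbered libraries correlated at -0.121 to 0.0476 (3 pairs, AMPK) and -0.177 to 0.148 (9 pairs, Lmx1b). With the replicate block, 10 Hox genes were called in AMPK-/- (1 higher, 9 lower), 10 in Lmx1b+/- and 0 in Lmx1b-/- against WT, and 1 in Lmx1b-/- against Lmx1b+/-. In the same order, all genes called were 1350 of 17397, and 7243, 5 and 4720 of 21729.

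For the named Hox calls, 159 of the values under alternatives kept direction and call, 32 lost the call and 0 reversed. Hoxb3 and Hoxc5 kept theirs in all 15 alternatives that gave a value, and Hoxb8 lost it in 9 of 15. The mean paralog number of prenatal WT moved to 4.60 with CPM weights and to 4.57 without Hoxa5. With single libraries left out it was 5.55 to 5.92 in AMPK WT, 4.94 to 5.64 in AMPK-/-, 4.68 to 4.78 in Lmx1b WT, 4.75 to 5.16 in Lmx1b+/- and 4.75 to 4.88 in Lmx1b-/-. The shallow AMPK libraries limit what can be seen below about 10 CPM.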
